A study of Mus musculus with 2 samples.

Results

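The barcodes described here are those of Cd8a-positive T cells in sections of mouse tumour, chosen by counts of 4 genes. A barcode, which stands for 1 segmented cell, was taken when it held 40 or more gene counts, at least 1 count of Cd3e or Cd3d (subunits of the T cell receptor complex), at least 1 count of Cd8a (the coreceptor of cytotoxic T cells) and no more than 1 count of Epcam (an adhesion protein of epithelial cells). The rule took 1816 of 516855 barcodes, with 1167 of 255744 in the section labelled RKP and 649 of 261111 in the section labelled EKP. Counts were made with Xenium In Situ, which decodes single RNA molecules in place and assigns them to segmented cells, on a panel of 379 mouse tissue genes and 100 added genes. RKP and EKP are a pair of cultured lines. The labels name the tumours diffuse gastric cancer, explain neither abbreviation and leave unstated in which line RHOA, the small GTPase of the series title, is mutated. RKP and EKP tumours were grown alike: the same number of cultured cells, mixed 1:1 with Matrigel, was placed subcutaneously on both flanks of 5-week-old C57BL/6 mice, tumours were collected when their volumes were alike, and both went into 1 paraffin block on 1 slide. With 1 section per line there is no test between RKP and EKP and no p-value, and intervals cover counting error alone. The gated barcodes held 171095 gene counts in RKP and 93954 in EKP, with a median of 134 per barcode in both. The whole sections held 44294494 and 31597828, and 91.9% and 62.0% of their barcodes reached 40 counts.

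Cytotoxic T cells recognise peptides shown by a target cell and release granules that hold perforin and granzymes. Perforin opens the target's membrane, and granzymes enter and start cell death. T cells that meet antigen over a long time, as in tumours, also carry inhibitory receptors such as PD-1, LAG-3, TIM-3 and CTLA-4, the targets of checkpoint antibodies. Levels are given as CPM, counts scaled to 1e+06 gene counts and summed over a set of barcodes, and the main set beside the gated barcodes is that of Cd3e-positive barcodes of the same section with no Cd8a, 40 or more counts and at most 1 Epcam (5529 in RKP and 2122 in EKP, with a median of 118 and 128.5 counts), called Cd8a-negative here. That set can hold T cells whose Cd8a was missed as well as other T cells, and levels of Cd4 and Foxp3 were not analysed here.

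The label was checked against its 5 markers. Cd3e, Cd3d and Cd8a chose the barcodes, so their levels in the gate are a description: Cd8a stood at 25787 CPM in RKP and 24853 CPM in EKP, Cd3e at 18428 and 19222 CPM, and Cd3d at 8048 and 7983 CPM. The other 2 markers took no part in the rule. Gzmb, the granzyme B protease of cytotoxic granules, stood at 9644 CPM in gated RKP barcodes and 321 CPM in all other RKP barcodes of 40 or more counts, and at 9558 against 143 CPM in EKP. Pdcd1, which encodes the inhibitory receptor PD-1, stood at 8416 against 151 CPM in RKP and at 7216 against 65.3 CPM in EKP. Both are thus many times above the rest of their section, which is mostly barcodes without Cd3. That contrast cannot tell Cd8a-positive T cells from other T cells, and levels in Cd8a-negative barcodes are given below. A gene was kept in a comparison when its counts in 1 of both sets reached 20 and passed the highest negative control probe, and 2-fold serves only to sort by size. Of 437 kept genes in RKP, 52 (11.9%) were 2-fold or more above other barcodes and 100 (22.9%) as far below, and of 470 in EKP, 75 (16%) and 98 (20.9%). Ptprc, the leukocyte antigen CD45, was 4.41-fold and 5.27-fold above other barcodes in RKP and EKP, and Satb1, a chromatin organiser of T cells, was 16.4-fold and 17.3-fold above them. Ms4a1, a membrane protein of B cells, had 3 counts in the RKP gate and 2 in the EKP gate. The highest negative control probe summed to 1 count in each gate.

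The gated barcodes were not free of other cells' RNA. The 13 measured macrophage markers summed to 48786 CPM in the RKP gate against 51327 in other RKP barcodes, and to 39636 against 35300.1 CPM in EKP. The 10 fibroblast markers summed to 84129 CPM in the RKP gate and 139877 CPM in the EKP gate, above the 71902 and 108526 CPM of other barcodes. For the 12 tumour epithelial markers, Epcam among them, the sums were 28078 CPM in RKP and 17753 CPM in EKP, against 124936 and 104537 CPM in other barcodes. No marker of these 3 lists was at 0 in either gate. Thus stromal and macrophage transcripts lay in the gate at about their level in the whole section, and epithelial ones well below it. No doublet caller was run. Of the T cell lists, the panel measured 2 of 20 cytotoxic genes, 6 of 21 checkpoint genes, 5 of 24 cycling genes and 0 of 11 genes of naive and memory cells.

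Gated barcodes made up 0.496% (0.468 to 0.526) of RKP barcodes with 40 or more counts and 0.401% (0.370 to 0.433) of EKP ones, with Clopper-Pearson 95% intervals, a ratio of 1.24 (1.12 to 1.37). The order turned with the demand for purity. Gated barcodes with no Krt8, the simple epithelial keratin, were 536 in RKP and 399 in EKP, which gave a ratio of 0.926. Among all Cd3-positive barcodes with at most 1 Epcam, 14.4% (13.6 to 15.2) were Cd8a-positive in RKP and 18.8% (17.5 to 20.1) in EKP. With no limit on Epcam, these shares were 20.5% (19.7 to 21.2) and 22.2% (21.0 to 23.5), much closer together. The gate held 34.9% of the 12650 Cd8a counts of RKP and 34.3% of the 6811 of EKP. A further 44.8% and 25.1% lay in Cd3-positive barcodes with 2 or more Epcam counts, and 0.996% and 17.9% in barcodes under 40 counts. The limit on Epcam fell unevenly: 49.8% (47.7 to 51.8) of barcodes with both Cd3 and Cd8a held 2 or more Epcam counts in RKP and 35.3% (32.3 to 38.3) in EKP. For Cd3e-positive barcodes with no Cd8a, the shares were 22.05% (21.1 to 23.0) in RKP and 18.1% (16.7 to 19.7) in EKP. In both sections, then, Cd8a-positive barcodes shared their outline with epithelial transcripts more often than Cd8a-negative ones did, and most often in RKP. Krt8 alone shows the same order within the limit, as no Krt8 was counted in 45.9% of gated and 67.1% of Cd8a-negative RKP barcodes, and in 61.5% and 74.7% of EKP ones. Positions of cells were not analysed here, so whether these T cells lay among tumour cells or were joined to them by segmentation was not tested.

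As to the limits of the rule, gated barcodes with exactly 1 Cd8a count, just inside, numbered 362 in RKP and 202 in EKP, and had 1233 and 2310.2 CPM of Prf1, against 229 and 274 CPM just outside, at Cd8a 0. Barcodes with Cd8a and a single Cd3 count had 2672 and 2479 CPM of Pdcd1, and those with Cd8a and no Cd3 had 453 and 379 CPM. At 1 Epcam count the Prf1 level was 4092 and 6032 CPM, and at 2, outside the rule, 4869 and 6564 CPM. Barcodes with 40 to 49 counts had 11068 and 8696 CPM of Gzmb, and those with 30 to 39 had 11616 and 12598 CPM. Pdcd1 at Cd8a 1 was 2895 and 2237 CPM, against 2874 and 1340.5 CPM at Cd8a 0. In RKP, Gzmb was 4725 CPM at Cd8a 1, against 4279 CPM at Cd8a 0. Prf1 thus differed several-fold across the limit on Cd8a and Pdcd1 across that on Cd3. Pdcd1 across the limit on Cd8a, Prf1 across that on Epcam and, in RKP, Gzmb across that on Cd8a differed much less.

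Prf1 set the gate apart from Cd8a-negative barcodes more than any other kept gene in either section, and Gzmb was also higher in the gate. Prf1, which encodes perforin, stood at 4097 CPM in gated and 256 CPM in Cd8a-negative RKP barcodes, and at 5619.8 and 298 CPM in EKP. The ratios were 16.0 (13.6 to 18.9) and 18.9 (15.1 to 23.9), with exact conditional binomial 95% intervals. Gzmb stood at 9644 CPM in gated and 4828 CPM in Cd8a-negative RKP barcodes, a ratio just under the 2-fold limit at 2.00 (1.88 to 2.12), and at 9558 and 2682 CPM in EKP, a ratio of 3.56 (3.24 to 3.92). Gzmb was unevenly spread over the Cd8a-negative barcodes: those with Ctla4 had 8615 CPM in RKP and 7037 CPM in EKP, closer to the gate than those without, which had 1597 and 871 CPM. Prf1 was low in both of these, at 247 and 304 CPM with Ctla4 and 263 and 295 CPM without. The gated levels of Gzmb were near each other, and the Cd8a-negative levels lay 1.80-fold higher in RKP than in EKP. After thinning every barcode to 40 counts, 13.4% of gated and 1.07% of Cd8a-negative RKP barcodes held a Prf1 count, and 14.2% and 1.18% of EKP ones. Without thinning these shares were 29.99% and 2.66% in RKP and 35.1% and 3.30% in EKP. In barcodes with 5 or more Epcam counts and no Cd3e, Cd3d or Cd8a, which should lack the gene, the unthinned shares were 0.163% and 0.377%, at median depths of 241 and 261 counts against 134 in both gates. Perforin transcripts in the gate are therefore far above that background.

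The promoters of Prf1, Gzmb, Pdcd1 and Ctla4 are shown as examples of effector and checkpoint genes that differed between gated and Cd8a-negative barcodes, the first 3 being higher and Ctla4 lower in the gate. Lag3, which had no entry among the promoters used, and Havcr2 differed as well and are not shown. Each is the 250 bases before the annotated start, from RefSeq (GRCm38.p6), 5′ to 3′ on the gene's strand: Prf1 at chr10:61297586-61297835 on the plus strand, Gzmb at chr14:56262335-56262584 on the minus strand, Pdcd1 at chr1:94052554-94052803 on the minus strand and Ctla4 at chr1:60908775-60909024 on the plus strand. Capitals mark matches on either strand to TGTGGT (RUNX factors), TGANTCA (AP-1) or TGGAAA (NFAT), which 14.0%, 6.75% and 18.6% of 32851 promoters of this length hold at least once.
Prf1: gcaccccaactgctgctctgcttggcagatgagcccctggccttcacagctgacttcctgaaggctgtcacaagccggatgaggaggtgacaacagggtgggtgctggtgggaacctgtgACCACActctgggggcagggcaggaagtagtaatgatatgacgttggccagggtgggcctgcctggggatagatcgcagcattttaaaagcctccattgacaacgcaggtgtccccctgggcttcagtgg
Gzmb: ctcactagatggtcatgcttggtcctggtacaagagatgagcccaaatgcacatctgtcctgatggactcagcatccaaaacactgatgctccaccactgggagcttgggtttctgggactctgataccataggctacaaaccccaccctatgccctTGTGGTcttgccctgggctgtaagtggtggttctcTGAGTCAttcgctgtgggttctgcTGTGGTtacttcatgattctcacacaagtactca
Pdcd1: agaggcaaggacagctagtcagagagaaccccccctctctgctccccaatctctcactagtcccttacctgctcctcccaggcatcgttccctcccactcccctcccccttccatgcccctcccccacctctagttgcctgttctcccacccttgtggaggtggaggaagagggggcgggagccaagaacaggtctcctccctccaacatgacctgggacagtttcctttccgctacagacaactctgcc
Ctla4: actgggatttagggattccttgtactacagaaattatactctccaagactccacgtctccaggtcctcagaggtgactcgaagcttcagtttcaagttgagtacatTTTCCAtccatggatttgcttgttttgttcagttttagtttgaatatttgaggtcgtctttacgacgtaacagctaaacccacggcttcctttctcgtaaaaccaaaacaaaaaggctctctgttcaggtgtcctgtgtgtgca
The Prf1 window holds 1 RUNX match, 130 bases before the start. The Gzmb window holds 2 RUNX matches, at 93 and 34 bases, with 1 AP-1 match between them at 58, and the Ctla4 window holds 1 NFAT match at 144. The Pdcd1 window holds 0 matches, which says only that these letters are not in it. These matches are letters in a window and were not tied to any measurement here.

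Of 6 measured checkpoint genes, Pdcd1 and Lag3 were past 2-fold in the gate in both sections. Over the whole panel of RKP, 12 of 337 kept genes (3.56%) stood 2-fold or more above the Cd8a-negative level in the gate and 58 (17.2%) as far below it. In EKP, 11 (3.58%) and 34 (11.1%) of 307 did. The median log2 ratios were -0.24 and -0.27. Lag3, an inhibitory receptor that binds MHC class II, stood at 5973 against 1453 CPM in RKP, a ratio of 4.11 (3.77 to 4.48), and at 6205 against 972 CPM in EKP, a ratio of 6.38 (5.54 to 7.37). For Pdcd1 the levels were 8416 against 3253 CPM and 7216 against 1584 CPM, and the ratios 2.59 (2.42 to 2.76) and 4.56 (4.05 to 5.13). Both receptors were thus higher beside Cd8a in each section.

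Havcr2, which encodes TIM-3 and is also carried by macrophages and dendritic cells, differed from them. It stood at 2694 against 2283 CPM in RKP, a ratio of 1.18 (1.06 to 1.31), and at 4672 against 1535 CPM in EKP, a ratio of 3.04 (2.67 to 3.48). Ctla4, the inhibitory receptor that competes with CD28 and is abundant on regulatory T cells, was lower in the gate, with 6371 against 13012 CPM in RKP and 4577 against 6582 CPM in EKP. Its ratios were 0.490 (0.459 to 0.521) and 0.695 (0.625 to 0.772), so only the RKP one is past 2-fold, and at 5 or more Cd8a counts the EKP log2 ratio turned to 0.22. Cd80 and Cd86, the B7 ligands of antigen-presenting cells, had ratios of 0.621 and 0.935 in RKP and 1.10 and 1.42 in EKP, none past 2-fold. As a list, the checkpoint genes had a median log2 ratio of 0.07 in RKP and 1.06 in EKP.

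**Figure D1:**
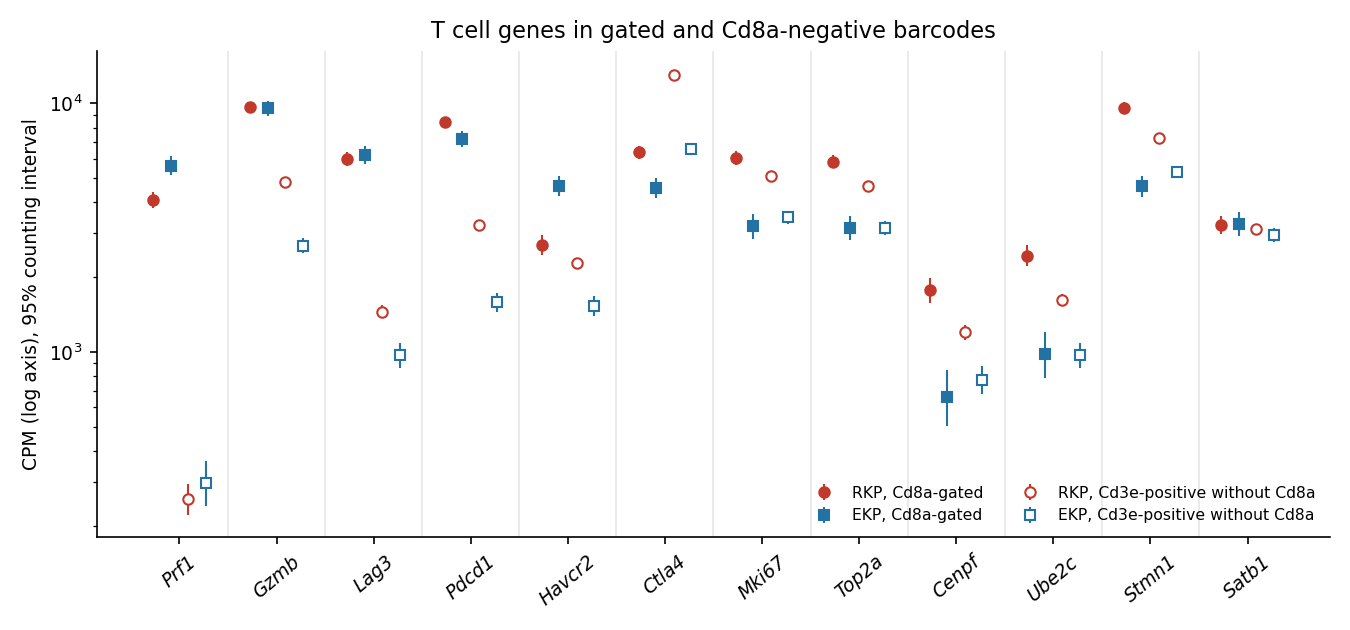
Levels of 12 T cell genes as CPM on a log axis, in Cd8a-gated barcodes (filled) and in Cd3e-positive barcodes without Cd8a (open), RKP as circles and EKP as squares, with exact Poisson 95% counting intervals. Prf1, Lag3 and Pdcd1 lie higher in the gate in both sections, Ctla4 lies lower, and the 5 cycling genes lie higher in RKP than in EKP within the gate.

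Within the Cd3-positive barcodes, levels were followed over the number of Cd8a counts, which was used by the rule only as present or absent. At 1, 2, 3 to 4 and 5 or more Cd8a counts, Prf1 stood at 1233, 2985, 3853 and 7436 CPM in RKP and at 2310.2, 4040.3, 4013 and 10287 CPM in EKP. Over the same steps Pdcd1 stood at 2895, 5778, 7326 and 15449.5 CPM in RKP and at 2237, 3561, 7108 and 13313 CPM in EKP. Perforin and PD-1 transcripts were thus densest where Cd8a was densest. Lag3 reached 11128 CPM in RKP and 11179 CPM in EKP at 5 or more Cd8a counts, and Gzmb reached 14347 and 16339 CPM. Ctla4 dipped first, with 11474, 5192 and 8591 CPM at 0, 1 and 5 or more Cd8a counts in RKP and 5493, 2640.2 and 7644 CPM in EKP. Mki67, the proliferation antigen Ki-67, had a smaller range, with 6200.0, 5472, 6450.5 and 5914 CPM over the 4 steps from 1 in RKP and 2750.2, 2602, 2998 and 4045 CPM in EKP, highest at the last step there. Median depth moved with the steps too, being 130.5 and 148 counts at the lowest and highest step in RKP and 119 and 158 in EKP. General T cell and leukocyte genes rose over the steps as well. From 1 to 5 or more Cd8a counts in RKP, Cd3e went from 9655 to 28397 CPM and Ptprc from 15369 to 32701 CPM. The parts of depth and of T cell RNA as a whole in these slopes were not tested.

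**Figure D2:**
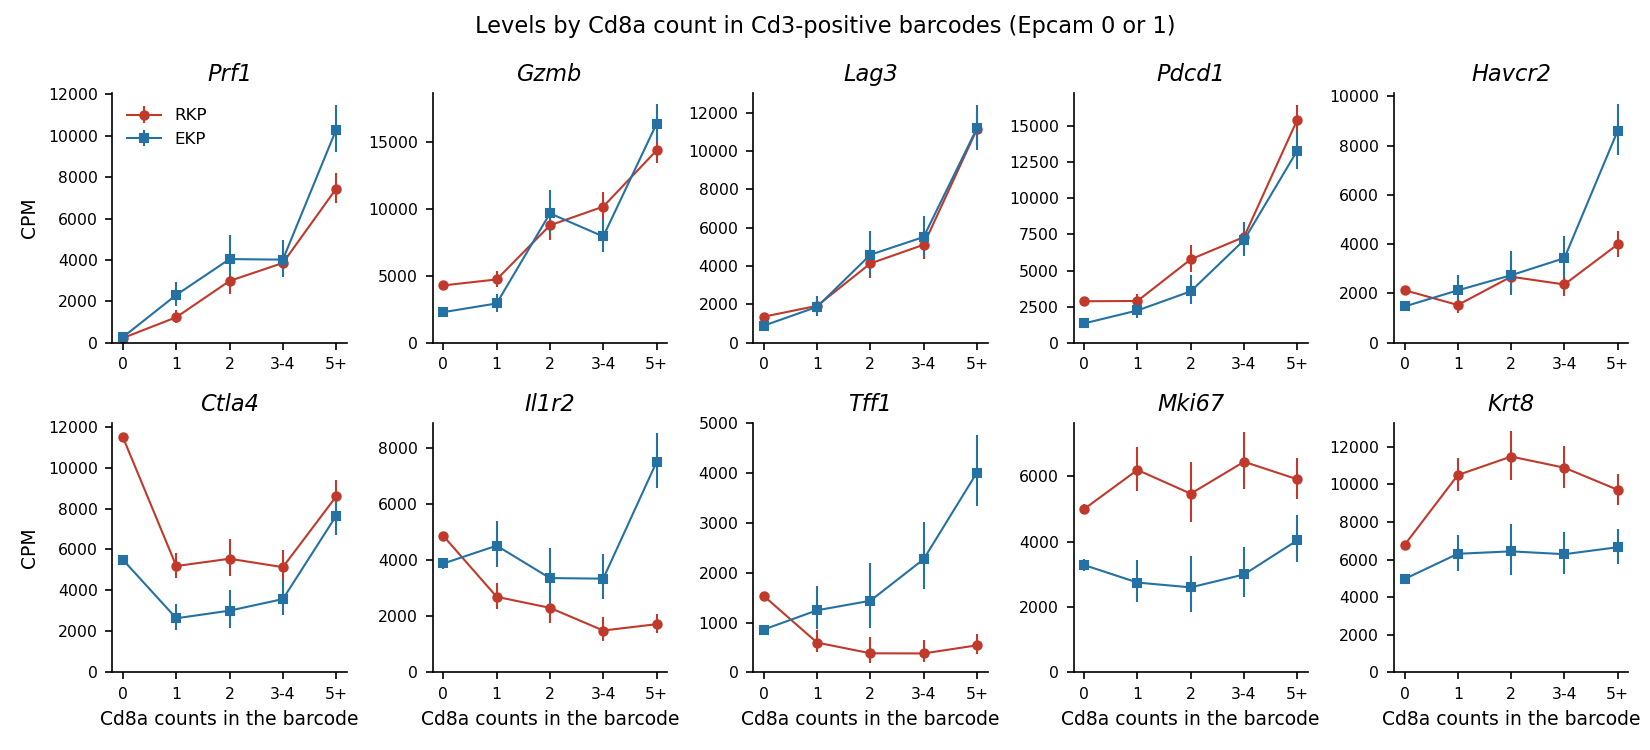
CPM of 10 genes (linear axes from 0) by the number of Cd8a counts in Cd3-positive barcodes with Epcam 0 or 1, RKP as red circles and EKP as blue squares, with exact Poisson 95% counting intervals. Prf1, Gzmb, Lag3, Pdcd1 and Havcr2 are highest at 5 or more Cd8a counts in both sections, whereas Il1r2 and Tff1 are highest there in EKP and at 0 Cd8a counts in RKP.

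Across both sections at once, 4 of the 292 genes kept in both (1.37%) were past 2-fold and higher in the gate: Prf1, Lag3, Pdcd1 and Car2. Car2, a carbonic anhydrase abundant in epithelial cells, had ratios of 2.98 (2.50 to 3.55) in RKP and 3.06 (2.21 to 4.23) in EKP. Its level was far higher outside the T cells, with 1292 CPM in the gate and 3941 CPM in Epcam-rich barcodes of RKP and 819.5 and 3378 CPM in EKP. At 1.5-fold, 12 genes (4.11%) were higher in both, among them Gzmb, Pglyrp1, a secreted peptidoglycan recognition protein, at 1.85 and 2.49, and 6330403K07Rik at 2.98 and 1.93. Ms4a6b, a membrane protein of T cells and macrophages, had 1.56 and 1.57. Of the 12, Cldn2 and Cldn4, both claudins of tight junctions, and Prom1, a membrane protein of epithelial stem cells, are in the tumour epithelial list. Of 11 kept members of that list, 3 were past 2-fold in RKP and 0 in EKP, and its summed ratio was 1.65 (1.60 to 1.71) in RKP and 1.38 (1.31 to 1.47) in EKP. Epithelial transcripts therefore moved with the gate, and their part in the ratios above was not tested.

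Below the Cd8a-negative level by 2-fold or more in both sections were 6 genes (2.05%), and by 1.5-fold 41 (14%). The split of 4 higher and 6 lower genes was 6 and 5 as counts per barcode, 7 and 5 with totals that leave out the gate genes, and 5 and 11 with every barcode weighted alike. The 6 were Muc3a, Aqp3, Comp, Stfa2l1, Retnla and Mustn1. Muc3a, a membrane mucin, had ratios of 0.178 (0.0845 to 0.334) in RKP and 0.181 (0.0573 to 0.438) in EKP, from 10 and 5 gated counts. Aqp3, a water and glycerol channel, had 0.274 (0.186 to 0.389) and 0.197 (0.0706 to 0.444). Comp, a cartilage matrix protein, and Cxcr2, the chemokine receptor of neutrophils, were 5.39-fold and 3.47-fold lower in RKP and 2.29-fold and 1.76-fold lower in EKP. Stfa2l1, a stefin protease inhibitor, had 0.480 and 0.181, Retnla, a macrophage product, 0.393 and 0.445, and Mustn1, a musculoskeletal protein, 0.363 and 0.490. Among those past 1.5-fold, Reg3g had 0.208 and 0.586 and Cstdc4, another stefin, 0.544 and 0.315, while Retn, Mrgpra2a and Omp rested on 1 to 9 gated counts. Beside these ratios, summed fibroblast markers were 0.735 (0.722 to 0.748) times the Cd8a-negative level in RKP and 0.862 (0.846 to 0.879) times in EKP. Neutrophil markers gave 0.657 (0.625 to 0.691) and 0.996 (0.937 to 1.06), macrophage markers 0.877 and 0.877. Their part in these differences was not tested.

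**Figure D3:**
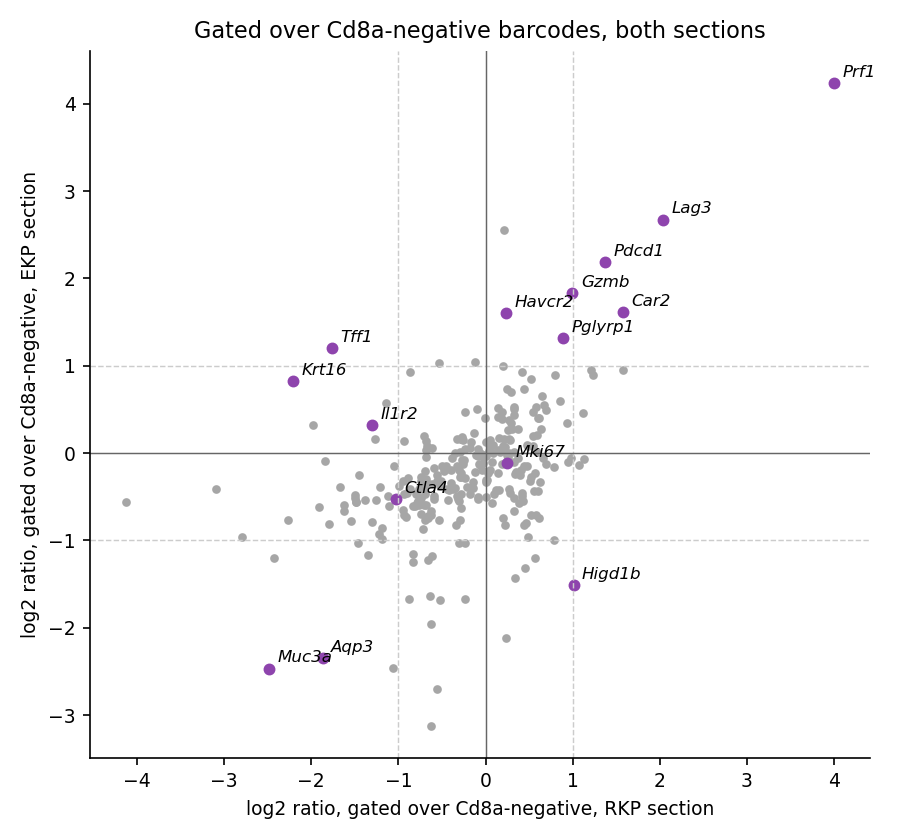
Each point is 1 of the 292 genes kept in both sections, with its log2 ratio of gated over Cd8a-negative barcodes in RKP (x) and EKP (y), and dashed lines at 2-fold. Prf1, Lag3, Pdcd1 and Car2 lie past 2-fold in both, and Tff1, Krt16, Il1r2 and Higd1b lie on opposite sides of 0.

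Single barcodes often joined these genes. At full depth, 48.6% of gated RKP barcodes and 54.9% of gated EKP barcodes held Gzmb or Prf1, against 23.5% and 16.5% of Cd8a-negative ones, and 26.5% and 26.7% held at least 3 of Pdcd1, Lag3, Havcr2 and Ctla4, against 10.5% and 5.51%. Thinned to 40 counts, the first pair of shares was 29.4% and 33.6%, against 13.5% and 9.14%. At that depth Lag3 was seen in 26.0% of gated RKP barcodes with Pdcd1 and 17.3% of those without, and in 31.1% and 13.7% of EKP ones. Gzmb or Prf1 was seen in 37.5% of gated RKP barcodes with Pdcd1 and 26.4% of those without, and in 46.0% and 29.5% in EKP. In Epcam-rich barcodes, thinned alike, Gzmb was seen in 0.324% and 0.145%, Pdcd1 in 0.0481% and 0.0501% and Lag3 in 0.441% and 0.765%. Cytotoxic genes and Lag3 were thus seen more often beside Pdcd1 than without it. For cycling genes the order depended on depth. Thinned to 40 counts, Mki67 or Top2a was seen in 26.3% of gated RKP barcodes with Pdcd1 and 28.4% without, and in 10.6% and 16.6% in EKP. At full depth the shares were 53.7% and 49.4% in RKP and 37.2% and 34.2% in EKP, and the intervals overlap in each pair.

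Levels gave the same picture for cytotoxic genes. Gated barcodes with a Pdcd1 count had 5853 CPM of Prf1 in RKP, against 2178 CPM in those without, a ratio of 2.69 (2.26 to 3.20), and 8743 against 2641 CPM in EKP, a ratio of 3.31 (2.71 to 4.07). Satb1 ran the other way, with 2619 CPM beside Pdcd1 and 3939.5 CPM without it in RKP, a ratio of 0.665 (0.559 to 0.789), and 2071 and 4429 CPM in EKP, a ratio of 0.468 (0.363 to 0.598). Mki67 stood at 6199.7 and 5873 CPM with and without Pdcd1 in RKP and at 3227 and 3202 CPM in EKP, ratios of 1.06 (0.933 to 1.20) and 1.01 (0.799 to 1.27). The gate genes moved with the split as well, as barcodes with Pdcd1 had 1.91 (1.79 to 2.03) times the Cd8a level of those without in RKP and 1.82 (1.67 to 1.98) times in EKP, and 1.76 (1.63 to 1.89) and 1.77 (1.61 to 1.95) times the Cd3e level. In each section, then, Prf1 was higher and Satb1 lower beside Pdcd1, and the part of T cell RNA as a whole in these ratios was not tested.

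Between the sections, the genes enriched in both gates differed by less than 2-fold, apart from Tff1. In the gate, 47 of 270 kept genes (17.4%) were past 2-fold and higher in RKP and 28 (10.4%) past 2-fold and lower, with a median log2 ratio of 0.01. Of 352 in Cd8a-negative barcodes, 48 (13.6%) and 39 (11.1%) were. Of the 20 genes (7.41%) that were 2-fold or more above other barcodes in both gates, 1 was past 2-fold between the sections, Tff1, and the median ratio of the 20 was 0.959. That set leaves out genes enriched in 1 gate alone, some of which, such as Sfrp1, were past 2-fold. Gzmb had a ratio of 1.01 (0.930 to 1.10), Lag3 0.963 (0.869 to 1.07), Pdcd1 1.17 (1.06 to 1.28) and Ptprc 1.14. Ms4a6b stood at 10649 and 11282 CPM. Prf1 was lower in RKP, at 0.729 (0.6503 to 0.818), as was Havcr2 at 0.577 (0.505 to 0.659), and Ctla4 was higher at 1.39 (1.24 to 1.56). The summed cytotoxic pair had a ratio of 0.905 (0.847 to 0.968) in the gate and 1.71 (1.59 to 1.84) in Cd8a-negative barcodes, and the checkpoint list 1.01 (0.958 to 1.06) and 1.76 (1.70 to 1.82). Both sums were thus higher in RKP among Cd8a-negative barcodes, and closer to 1 in the gate.

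The ratios of Prf1, Lag3 and Havcr2 changed with the epithelial transcripts in the barcodes. In gated barcodes with no Krt8, Krt19, Cdh1 or Epcam count, 267 in RKP and 258 in EKP, Prf1 stood at 5024 and 3685 CPM, a ratio of 1.36 (1.07 to 1.74) that turned its direction. There Lag3 had a ratio of 1.44 (1.16 to 1.81), Havcr2 1.01 (0.740 to 1.37), Ctla4 2.39 (1.91 to 3.01) and Gzmb 1.02 (0.871 to 1.20). In gated barcodes with at least 1 Krt8 count, by contrast, Prf1 had 4004 CPM in RKP and 7157 CPM in EKP, a ratio of 0.559 (0.481 to 0.651), and Havcr2 0.426 (0.359 to 0.505). Stated within EKP, Prf1 stood at 7157 CPM in gated barcodes with Krt8 and 4389 CPM in those without, Havcr2 at 6391 and 3297 CPM, and Lag3 at 7875 and 4868 CPM. In RKP the Prf1 levels were 4004 and 4241 CPM, Havcr2 2721 and 2654 CPM and Lag3 5769 and 6287 CPM. Gated barcodes that also held keratin RNA were thus the ones rich in perforin and TIM-3 transcripts in EKP, and not in RKP. Havcr2 was also read in Epcam-rich barcodes. Thinned to 40 counts, it was seen in 1.10% of them in RKP and 2.01% in EKP, beside 9.60% and 15.3% of gated barcodes. Unthinned, the Epcam-rich shares were 6.36% and 11.1%. Whether the slopes differ between the sections was not tested.

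Cycling genes were higher in the RKP gate. All 5 measured members of the cycling list had ratios above 1, and 3 of the 5 were past 2-fold, beside 17.4% of all kept genes. Mki67 stood at 6043 CPM in gated RKP barcodes and 3214 CPM in gated EKP barcodes, a ratio of 1.88 (1.65 to 2.14), and Top2a, the DNA topoisomerase of dividing cells, at 5833 and 3161 CPM, a ratio of 1.85 (1.62 to 2.11). Past 2-fold were Cenpf, a kinetochore protein, at 2.69 (2.04 to 3.598), Ube2c, a ubiquitin conjugase of mitotic exit, at 2.49 (1.99 to 3.16), and Stmn1, the microtubule regulator stathmin, at 2.07 (1.87 to 2.31). Summed, the list gave 2.03 (1.91 to 2.17) in the gate, 1.45 (1.40 to 1.501) in Cd8a-negative barcodes and 1.30 (1.30 to 1.31) in all other barcodes of 40 or more counts, so the gate had the highest ratio of the 3 sets, and the intervals do not overlap. Against Cd8a-negative barcodes of its own section, the list stood at 1.30 (1.25 to 1.34) in RKP and 0.924 (0.866 to 0.986) in EKP, on opposite sides of 1.

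Cycling genes were also read in Epcam-rich barcodes, so keratin-free gated barcodes were set beside the whole gate. With no Krt8, Krt19, Cdh1 or Epcam count, the summed cycling ratio was 2.09 (1.81 to 2.40), as large as in the whole gate, with Mki67 at 5582 CPM in RKP and 2802 CPM in EKP. Single genes differed: Cenpf fell to 1.62 (0.859 to 3.12) and Ube2c to 1.77 (1.05 to 3.03). There Mki67 had 1.99, Top2a 1.89 and Stmn1 2.49, the only one past 2-fold. At 5 or more Cd8a counts the summed ratio was 1.59 (1.44 to 1.77), and no member was past 2-fold, Stmn1 being highest at 1.81. Within each section, though, the list was higher beside Krt8, at 30438 CPM in gated barcodes with it and 18475 CPM without it in RKP, and at 16851 and 9296 CPM in EKP. The part of epithelial RNA in the ratios of gated over Cd8a-negative barcodes was not tested. Thinned to 40 counts, 17.2% of gated RKP barcodes and 8.63% of gated EKP barcodes held Mki67, beside 10.4% and 7.68% of Epcam-rich barcodes (unthinned 37.6% and 22.3%, beside 31.2% and 24.5%). In gated barcodes with Mki67, Top2a stood at 10226 CPM against 2491 CPM without it in RKP, and at 7484 against 1618 CPM in EKP. Prf1 did not follow Mki67, with ratios of 1.02 (0.874 to 1.19) and 0.905 (0.737 to 1.11). Top2a was thus higher beside Mki67 in single barcodes, and Prf1 was not. Other effector genes varied. Mki67 beside Havcr2 had ratios of 1.28 (1.13 to 1.46) in RKP and 1.83 (1.45 to 2.32) in EKP. Beside Lag3 it had 1.40 (1.24 to 1.59) and 1.23 (0.976 to 1.55), and beside Gzmb 1.13 (0.995 to 1.28) and 1.47 (1.17 to 1.86). Barcodes with Mki67 were deeper, with medians of 152 against 123 counts in RKP and 166 against 128 in EKP, and the part of depth was not tested.

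**Figure D4:**
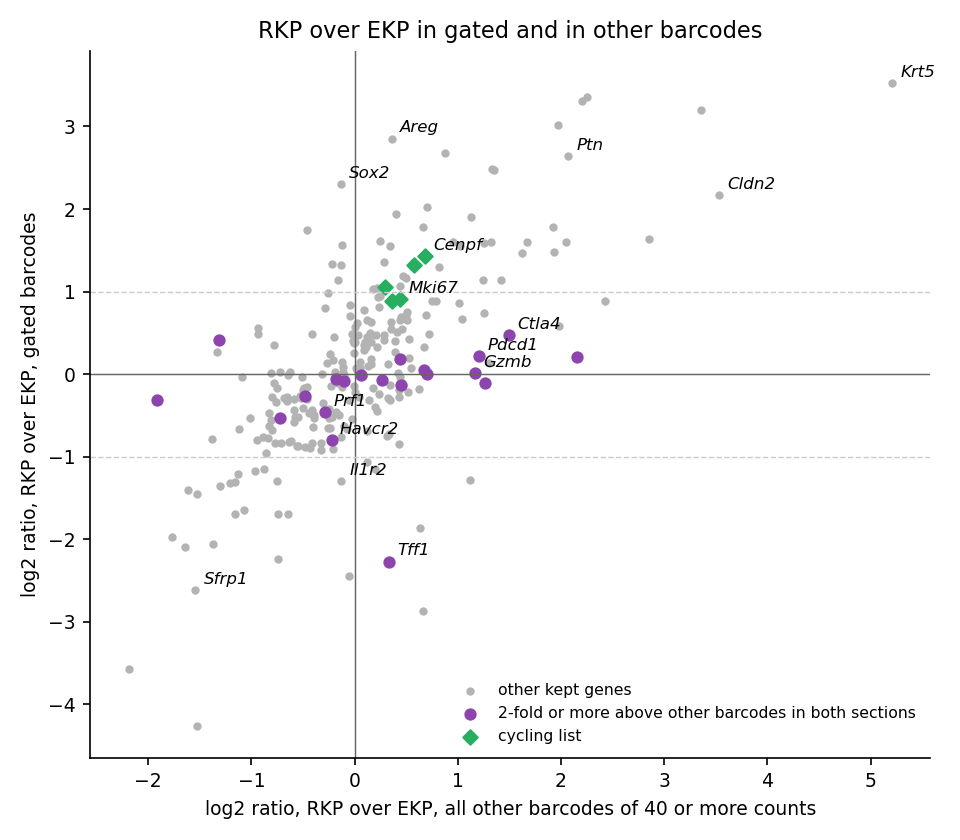
Log2 ratio of RKP over EKP for the 270 kept genes, in gated barcodes (y) and in all other barcodes of 40 or more counts (x), with dashed horizontal lines at 2-fold. The 20 genes 2-fold or more above other barcodes in both gates (purple) lie within 2-fold on the y axis apart from Tff1, and the 5 cycling genes (green diamonds) lie above 0 on it, 3 of them past 2-fold.

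A trefoil factor and a decoy receptor were higher in the EKP gate than in the RKP gate, though neither was particular to gated barcodes. Tff1, a secreted peptide best known from the gastric mucosa, stood at 503 CPM in gated RKP barcodes and 2427 CPM in gated EKP barcodes, a ratio of 0.207 (0.160 to 0.267). It was far lower outside the T cell sets, where other barcodes had 74.6 and 59.3 CPM and Epcam-rich ones 30.5 and 26.2 CPM. At full depth, 4.46% of gated RKP and 19.0% of gated EKP barcodes held a count (thinned 2.23% and 8.47%), beside 0.632% and 0.572% of Epcam-rich barcodes, which are deeper. In Cd8a-negative barcodes the order was the reverse, with 1701 CPM in RKP and 1055 CPM in EKP. There Tff1 went with Ctla4: Cd8a-negative barcodes with Ctla4 had 3057 CPM in RKP and 2804 CPM in EKP, against 544 and 328 CPM in those without. What else the probe may read was not tested.

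Within the EKP gate Tff1 was highest in the barcodes richest in Cd8a and in the other effector genes. It stood at 1247 CPM at 1 and 4013 CPM at 5 or more Cd8a counts in EKP, and at 598 and 542 CPM in RKP. Gated EKP barcodes with Havcr2 had 4610.2 CPM and those without it 1029.7 CPM, a ratio of 4.48 (3.31 to 6.13), and beside Prf1 the ratio was 3.64 (2.74 to 4.89). In the RKP gate the same ratios were 0.971 (0.580 to 1.58) beside Havcr2 and 0.544 (0.300 to 0.936) beside Prf1, whereas beside Ctla4 it was 5.52 (3.24 to 9.86) in RKP and 2.32 (1.77 to 3.04) in EKP, and beside Pdcd1 3.02 (1.81 to 5.26) and 2.87 (2.13 to 3.91). So Tff1 was higher beside Ctla4 and Pdcd1 in both sections, and higher beside Havcr2 and Prf1 in EKP alone, and the difference between the sections was not tested.

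Il1r2, the decoy receptor for interleukin-1, which neutrophils also carry, had a like course. It stood at 2063 CPM in gated RKP barcodes and 5066 CPM in gated EKP barcodes, a ratio of 0.407 (0.354 to 0.468), and at 5073 and 4052 CPM in Cd8a-negative ones. Cd8a-negative barcodes with Ctla4 had 7727 and 5900.2 CPM, above both gates. At 5 or more Cd8a counts the levels were 1715 CPM in RKP and 7485 CPM in EKP. Beside Prf1 its ratio was 0.779 (0.607 to 0.991) in RKP and 2.89 (2.39 to 3.51) in EKP. The RKP over EKP ratios of both genes changed with keratin RNA, as that of Havcr2 did. Without Krt8, Krt19, Cdh1 and Epcam, they were 0.743 (0.454 to 1.20) for Tff1 and 1.13 (0.827 to 1.55) for Il1r2, with intervals that hold 1, and with Krt8 they were 0.0862 (0.0551 to 0.130) and 0.244 (0.201 to 0.295).

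The genes with the largest ratios between the gates were mostly not T cell genes. Among the 12 highest in RKP, Krt5 and Krt79, keratins of stratified epithelium, had ratios of 11.5 and 9.20, with 3 and 4 counts in the EKP gate. Areg, the epidermal growth factor receptor ligand amphiregulin, which T cells can also make, stood at 4226 CPM in gated RKP and 585 CPM in gated EKP barcodes, a ratio of 7.22 (5.48 to 9.68), against 3.51 in Cd8a-negative and 1.28 in other barcodes. Sox2, a transcription factor of stem and foregut cells, stood at 6131 and 1245 CPM, a ratio of 4.92 (4.06 to 6.01), against 2.40 and 0.911. Both ratios were larger in the gate than outside it, and they stayed past 2-fold in keratin-free barcodes, at 30.7 (8.12 to 259.8) for Areg, on 2 EKP counts, and 13.4 (6.23 to 34.3) for Sox2, on 7. Their levels moved with keratin RNA, however. In gated RKP barcodes Areg stood at 6097 CPM with Krt8 and 1349 CPM without it, and Sox2 at 8596 and 2343 CPM. In gated EKP barcodes the levels were 1077 and 192 CPM for Areg and 2322 and 383 CPM for Sox2. The part of epithelial RNA in these levels was not tested. Ptn, the growth factor pleiotrophin, Sox9, a factor of epithelial progenitors, Tspan8, a tetraspanin, and Cldn2 had 6.25, 5.55, 5.59 and 4.48. Ppargc1a, a coactivator of mitochondrial genes, Mmrn1, a protein of platelets and lymphatic endothelium, Cpa3, a mast cell protease, and Rbp2, a retinol-binding protein, had 10.2, 9.88, 8.10 and 6.41, on 3 to 5 EKP counts each. Among genes that were themselves 2-fold or more above other RKP barcodes, the highest were Lyve1, a hyaluronan receptor of lymphatic vessels and macrophages, at 1.98 (1.19 to 3.43), S100a4, a calcium-binding protein of memory T cells and fibroblasts, at 1.69 (1.59 to 1.80), Aplp1, an amyloid precursor-like protein, at 1.40, Ctla4, 6330403K07Rik at 1.33 and Pdcd1, none past 2-fold.

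The 12 lowest in RKP were of mixed kinds, with matrix and fibroblast genes among them. Sfrp1, a secreted Wnt inhibitor of fibroblasts, stood at 1490.4 and 9111 CPM, a ratio of 0.164 (0.142 to 0.188), against 0.343 in other barcodes. Dpt, the matrix protein dermatopontin, and Serpina3n, a granzyme B-inhibiting serpin of the mouse, had 0.255 (0.206 to 0.315) and 0.308 (0.259 to 0.366), against 0.294 and 0.447 outside. Ccn3, Chl1, Ecrg4 and Reg3g, a matricellular protein, a neural adhesion protein, a secreted propeptide and an antimicrobial lectin, had 0.240, 0.212, 0.235 and 0.183. Car3, a muscle and fat carbonic anhydrase, and Capns2, a calpain subunit, had 0.137 and 0.275, and Ivl, a cornified envelope protein, and Kng2, a kininogen, rested on 4 and 2 RKP counts. Among genes that were themselves 2-fold or more above other EKP barcodes, the lowest were Kng2, Car3, Sfrp1, Reg3g, Tff1 and Chl1, all past 2-fold. Many of these ratios repeat outside the gate: of the 47 genes higher in RKP, 21 were past 2-fold the same way in all other barcodes (15% of 473 genes there) and 41 lay on the same side of 1, and of the 28 lower, 14 (26.4% of 473) and 22. On the opposite side lay 6 of the 47, Sox2 and Retnla among them, and 6 of the 28, Tff1 and Car3 among them. The median log2 ratio of the 473 genes was -0.22, so the lower side was the more common one there. Beside these ratios, the summed fibroblast list was 0.601 (0.587 to 0.616) in the gate and 0.663 (0.662 to 0.664) outside, and the tumour epithelial list 1.58 (1.496 to 1.67) and 1.20 (1.19 to 1.20). The part of neighbouring cells in these ratios was not tested.

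Of the genes on the macrophage list, Arg1 and Retnla were past 2-fold higher in RKP within the gate. Arg1, an arginase best known from suppressive macrophages, which depletes the arginine T cells need, stood at 14132 CPM in gated RKP and 4641 CPM in gated EKP barcodes, a ratio of 3.05 (2.75 to 3.38), larger than the 2.29 of Cd8a-negative and the 1.94 of other barcodes. In keratin-free gated barcodes its ratio was 5.25 (4.09 to 6.81). It was not confined to macrophage-rich barcodes, as Epcam-rich ones had 9754 and 4437 CPM. Thinned to 40 counts, Arg1 was seen in 31.7% of gated RKP and 12.9% of gated EKP barcodes, beside 26.1% and 13.3% of Epcam-rich ones (unthinned 55.4% and 26.96%, beside 62.8% and 39.3%), so its share in the gate is near that background. Mrc1, the mannose receptor, and Cd68, a lysosomal protein of macrophages, were on the other side of 1, at 0.806 (0.718 to 0.904) and 0.845 (0.752 to 0.9499). Mrc1 and Cd68 thus lay on the other side from Arg1, and the list as a whole was mixed. Of its 12 kept members, 2 were past 2-fold higher, Arg1 and Retnla, and 0 lower, and Lyve1 had a log2 ratio of 0.98. Over all 270 kept genes, 47 (17.4%) were higher and 28 (10.4%) lower, so the share of higher members is near that of the panel. The summed list, Arg1 included, had a ratio of 1.23 (1.18 to 1.28), and the median log2 ratio of its members was -0.22. Interferon-induced genes were scarce, with 43 and 31 counts of Rsad2, an antiviral enzyme, and 11 and 11 of Ifitm6 in the gates. Klra8, an activating receptor of natural killer cells, had 44 and 30 counts and a ratio of 0.805 (0.495 to 1.33).

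The sections were uneven within themselves. Each file was cut into 10 equal runs of barcodes in file order, which are not places and not replicates. Gated barcodes made up 0.197% to 0.740% of deep barcodes over the runs of RKP (median 0.559%) and 0.156% to 1.04% over those of EKP (median 0.330%). The cycling sum in the gate ran over 9823 to 38601 CPM in RKP (median 22389) and 8003 to 22892 CPM in EKP (median 11095). Tff1 ran over 46.5 to 1539.6 CPM in RKP and 0 to 4549.9 CPM in EKP. The runs of RKP and EKP overlap in the share and in both of these levels.

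**Figure D5:**
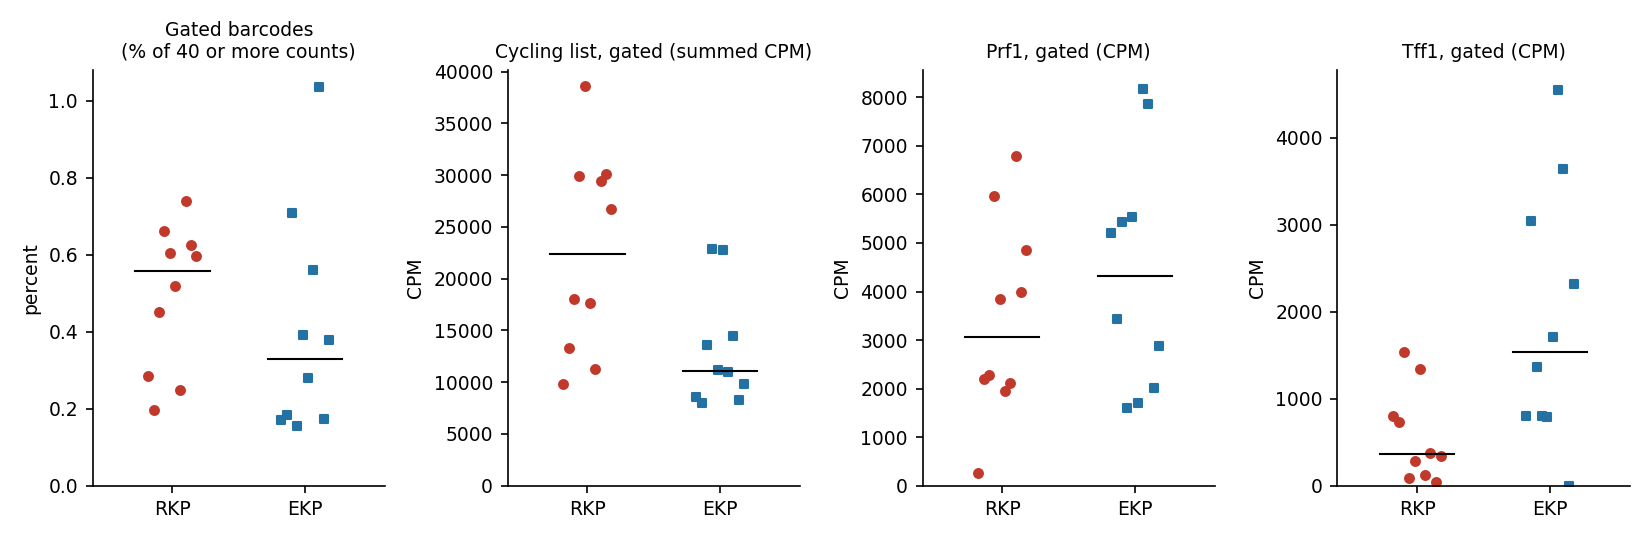
Share of gated barcodes and gated CPM of the cycling list, Prf1 and Tff1 in 10 runs of file order per section (linear axes from 0), RKP as red circles and EKP as blue squares, with black bars at the medians. The runs overlap between the sections in all 4 panels, and the medians of the share and of the cycling list are higher in RKP.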

How the data were processed

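The authors deposited, for each section, raw transcript counts per gene and barcode without normalization, and per the file headers they come from Xenium software with no version given. Seurat 4.4.0 appears in the submitters' processing notes, its role unstated. How cells were segmented, which reads passed a quality limit and where cells lay were not analysed here, and segmentation can give a T cell its neighbours' transcripts. The 2 sections were grouped by title. Barcode names were shared by both sections in 19 cases and were kept apart.

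The members and gene lists were chosen with earlier results of these data known. Counts of each set were summed and divided by all its gene counts (CPM). Genes were kept when their sum in 1 of the sets compared was above the highest of 20 negative control probes and at least 20, and the 4 gate genes were left out. The text names the gate genes and markers, all measured members of the T cell lists, the 10 genes per direction with the largest gated over Cd8a-negative ratio past 2-fold in both sections (1.5-fold where fewer than 10 were), and the 12 per direction, with 6 gate-enriched ones, for RKP over EKP. Ptprc, Satb1, Il1r2, the keratin-free subset and the promoters were chosen after values were seen. Ratios have exact conditional binomial, levels exact Poisson and shares Clopper-Pearson 95% intervals. For shares of barcodes with a gene, barcodes were thinned at random to 40 counts. A seeded simulation drew independent Poisson sums, the model the intervals assume, so its coverage checks the calculation and not the spread between barcodes. It recovered 100% of genes changed 3-fold or more past 2-fold (48, 37 and 35 genes for gated over Cd8a-negative in RKP and in EKP, and RKP over EKP). Intervals covered 95.3%, 95.8% and 96.1% of true values, and 2.48%, 5.62% and 2.01% of unchanged genes passed 2-fold. Python 3.11.15, numpy 2.4.6, pandas 2.3.3, scipy 1.17.1 and matplotlib 3.10.9 were used. Alternatives changed the limits on counts, Epcam, Cd8a, Cd3 and Krt8, the scale and the filter.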

Additional observations from a re-analysis of the deposited data

Results flagged for a closer look

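For 6 genes the ratio of gated over Cd8a-negative barcodes ran in opposite directions in the sections, by 1.5-fold or more each way. With 1 section per line, the difference between the sections was not tested. Tff1, a trefoil factor, had a ratio of 0.296 in RKP and 2.30 in EKP, from 86 and 228 gated counts. Krt16, a keratin of stratified epithelium, had 0.216 and 1.77, from 13 and 11 counts. Aldh1b1, a mitochondrial aldehyde dehydrogenase, had 0.547 and 1.90, from 20 and 23 counts. The other three ran the opposite way. Aif1l, an actin-binding protein, had 1.73 in RKP and 0.502 in EKP, from 104 and 17 counts, Insm1, a transcription factor of neuroendocrine cells, 1.53 and 0.596, from 22 and 10 counts, and Higd1b, a gene of pericytes, 2.02 and 0.351, from 14 and 6 counts.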

How the results depend on the processing

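The ratio of gated shares, RKP over EKP, was 1.24. It turned to 0.926 in barcodes with no Krt8 and to 0.713 with no Krt8, Krt19, Cdh1 or Epcam, a setting added after seeing the data, and was 1.60 with no limit on Epcam and 1.45 after thinning to 40 counts before the gate. Between the gates, the 47 genes past 2-fold and higher in RKP became 30 with no Krt8, 29 at 5 or more Cd8a counts and 29 with no epithelial marker, the last 2 added after seeing the data, and the 28 lower became 90 with no filter. The 4 genes higher than Cd8a-negative barcodes in both sections became 7 at 2 or more and 9 at 5 or more Cd8a counts, 12 with no filter and 7 with totals that leave out the gate genes. The 6 lower became 14 with both sets on Cd3e, 17 with both on Cd3e plus Cd3d, 15 at 2 or more and 39 at 5 or more Cd8a counts, 11 with every barcode weighted alike, 16 from 20 counts, 14 with no filter and, added later, 25 with no limit on Epcam. With no filter more genes are tested, and otherwise the cause was not tested. Of the log2 ratios of single genes, 2195 stayed within counting error of the reported value and 460 moved further. Among these, 75 and 67 changed sign, all from a reported ratio within 2-fold, such as Prf1, RKP over EKP, at 0.45 with no epithelial marker (reported -0.46) and Ctla4, gated over Cd8a-negative in EKP, at 0.22 with 5 or more Cd8a counts (reported -0.52). From ratios past 2-fold, 3 reversed: Il1r2, RKP over EKP, at 0.18 and Ivl, gated over Cd8a-negative in RKP, at 2.14, both with no epithelial marker, and Omp, RKP over EKP, at -0.86 with 5 or more Cd8a counts. As counts per barcode, the median log2 ratio of gated over Cd8a-negative genes in RKP was -0.11, against -0.24 as CPM. No paired analysis was possible because each line has 1 section, and no section could be left out for the same reason.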
